A study of Zea mays with 36 samples.

Results

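The transcriptome of embryos from a high-oil maize line was compared with that of embryos from a low-oil line at 15 days after pollination, the youngest of 6 stages sampled in this series. A feature of the deposited expression table was included when it reached at least 1 RPKM (reads per kilobase of feature, scaled to the library's total) in at least 3 of the 6 libraries of this age, and 22679 of the 63340 features did so. By their IDs, 20826 of them were annotated genes, 1686 were named by a running number only, 160 were noncoding RNAs with an ENSRNA ID and 7 were microRNA precursors. The groups were embryos labelled as high oil content at 15 days (3 libraries) and embryos labelled as low oil content at 15 days (3 libraries), with the same lines at 20, 25, 30, 35 and 40 days, again in 3 libraries each. The later libraries are set beside the early ones and also entered the fit that gave the variance, standard error and adjusted p of each early difference; with only the 15-day libraries fitted, 1279 members were called between the lines in place of 1437, of which 1219 were among the 1437. The labels give no names, pedigrees or treatments for the lines. All seeds had been soaked in water overnight before the embryo was taken out of the endosperm. Each oil level is 1 line, so oil content and any other genetic difference between the lines cannot be told apart. The labels do not say whether libraries came from separate ears or plants, so a p-value here covers only the spread between these libraries, and that spread may be technical.

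Most of the oil of a maize kernel lies in the embryo, chiefly in the scutellum, where triacylglycerol is packed into oil bodies during seed filling. The early embryo first lays down its axis and scutellum, and genes for storage products take over a growing share of its transcripts as filling proceeds. MicroRNAs, which are cut from longer precursor transcripts and silence messenger RNAs with a matching site, act in this patterning and in the transition to filling.

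The depth at 15 days was 41247297 to 51906444 reads per library, counted over all features. Between 22007 and 22666 features per high-oil library and between 21971 and 22950 per low-oil library reached 1 RPKM. The 10 features with the highest RPKM took 4.74% to 6.16% of the reads in high-oil libraries and 4.37% to 5.37% in low-oil libraries, a difference in means of 0.61 percentage points that did not pass the test (exact permutation p = 0.3, two-sided, 3 against 3 libraries, where 0.1 is the smallest p that can be reached; adjusted p = 0.93 over 4 summaries). On log2(RPKM + 1) over the members, libraries correlated at 0.968 to 0.977 on average with their own line and at 0.907 to 0.919 with the other line. The first principal component of the 6 libraries held 65.4% of the variance and separated the lines. The annotated IDs could not be paired with gene names: 0 of 44146 were found among the 49888 genes of the reference table, made for a different assembly. Gene lists and tissue markers defined by name were therefore not applied, and the label "embryo" was not checked against markers.

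High-oil replicate 1 stood apart from its 2 partners at a small set of features. A feature was counted as apart when 1 library lay at least 3 log2 units from both partners while these lay within 1 unit of each other, a rule set after the values were seen. There were 27 such features for high-oil replicate 1, against 1 for high-oil replicate 2 and 0 for high-oil replicate 3, and 2, 1 and 0 for low-oil replicates 1, 2 and 3. High-oil replicate 1 lay above its partners at 16 of the 27 and below them at 11. For 12 of the 27, the stray library was within 1 log2 unit of the low-oil mean, while the low-oil libraries stayed within 2 units of each other. In the later libraries the same rule gave 0 to 48 features, with 48 for high-oil replicate 1 at 40 days and 24 for low-oil replicate 1 at 30 days. The examples that follow were chosen after their values were seen.

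Zm00001d036866 had 30.2, 0.583 and 0.157 RPKM in high-oil replicates 1, 2 and 3, against 44.6, 50.1 and 45.1 RPKM in the low-oil libraries. Zm00001d047256 had 17.6, 0.0366 and 0.0184 RPKM in the high-oil libraries, against 18.5, 13.7 and 16.4 RPKM in the low-oil libraries. The feature Novel03847 had 33.0, 0.074 and 0.0602 RPKM in the high-oil libraries, against 27.3, 28.9 and 31.1 RPKM in the low-oil libraries. In all 3 the first high-oil library was at the low-oil level and the other high-oil libraries were near 0. At Zm00001d035560 high-oil replicate 1 was instead far below its partners, with 1.21, 403 and 203 RPKM in the high-oil libraries. All 3 were below the low-oil libraries, which had 1052, 887 and 988 RPKM. None of these 4 was called between the lines, with adjusted p of 0.14, 0.084, 0.14 and 0.15 (limma). Others of the 27 were among the members called lower in high-oil embryos. Zm00001d047662, for example, had 8.74, 0 and 0 RPKM in the high-oil libraries, against 9.37, 8.27 and 10.2 RPKM in the low-oil libraries (limma adjusted p 0.0093).

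At Zm00001d036866, Zm00001d047256 and Novel03847 the high-oil line showed on and off states at other ages too. Zm00001d035560 ran from 1.21 to 1731 RPKM over the 18 high-oil libraries without a split at 1 RPKM. Over all 18 high-oil libraries, Zm00001d036866 was at 28.8 to 106 RPKM in 9 and at 0.157 to 0.91 RPKM in the other 9, with no value between. Zm00001d047256 was at 4.79 to 17.6 RPKM in 10 high-oil libraries and at 0.0184 to 0.0611 RPKM in 8. The states of Zm00001d047256 and Zm00001d047367 were the same in 18 of 18 high-oil libraries, split at 1 RPKM, and those of Zm00001d047256 and Zm00001d036866 in 17 of 18. In the 18 low-oil libraries these genes never left the high range, with 44.6 to 111 RPKM for Zm00001d036866, 8.27 to 18.5 RPKM for Zm00001d047256 and 15.8 to 24.6 RPKM for Zm00001d047367. The high-oil replicates thus differ among themselves at these features by as much as the lines do, and the results below are given with all libraries and, where it matters, without high-oil replicate 1.

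**Figure D1:**
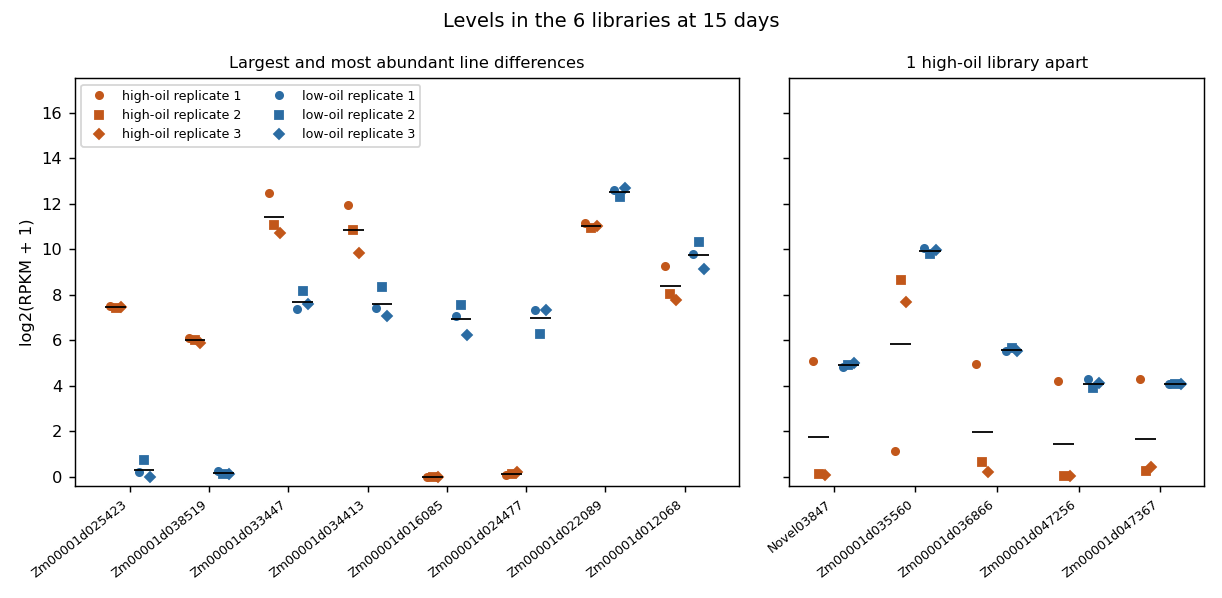
Levels in the 6 libraries at 15 days, as log2(RPKM + 1), with 1 symbol per replicate, high-oil libraries in orange left of low-oil libraries in blue, and black bars for group means. The left panel shows the members with the largest line differences and the most abundant members that were called, and the right panel shows 5 features at which high-oil replicate 1 lies away from both its partners.

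The lines differed at many features, in both directions about equally. The threshold for a call was an adjusted p from limma below 0.05 together with a difference of at least 1 on the log2(RPKM + 1) scale, on which differences of low features are understated. Of the 22679 members, 744 were higher and 693 lower in high-oil embryos, against a background of 2.95% higher and 2.77% lower (5.72% in either direction) among all 28048 features tested, those with 1 RPKM in at least 3 of the 36 libraries. Without high-oil replicate 1 the counts were 715 higher and 803 lower. The median difference over all members was -0.04 log2 units.

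Over 50% of the calls were of members that entered only through the line in which they were high. There were 510 members that had 1 RPKM in all 3 high-oil libraries and in none of the low-oil libraries, and 446 with the reverse, so both sets were chosen in part by a difference between the lines. They held 423 of the 744 higher and 353 of the 693 lower calls. Among the 19459 members at or above 1 RPKM in all 6 libraries, 231 were called higher and 242 lower. Outside the members, 83 further features were called higher and 83 lower.

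Large differences were a minority of the calls. Of the calls, 294 higher and 268 lower ones reached 2 log2 units, and 44 higher and 29 lower ones reached 4. By mean level, the share called was 13.6% of the members under 3 RPKM, 6.52% at 3 to 10 RPKM, 3.56% at 10 to 30 RPKM, 2.42% at 30 to 100 RPKM and 3.03% at 100 to 1000 RPKM. Among the 55 members at or above 1000 RPKM, 3 were higher and 1 was lower. These shares include the members that entered only through the line in which they were high. The part of that rule in the shares at low levels was not tested.

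**Figure D2:**
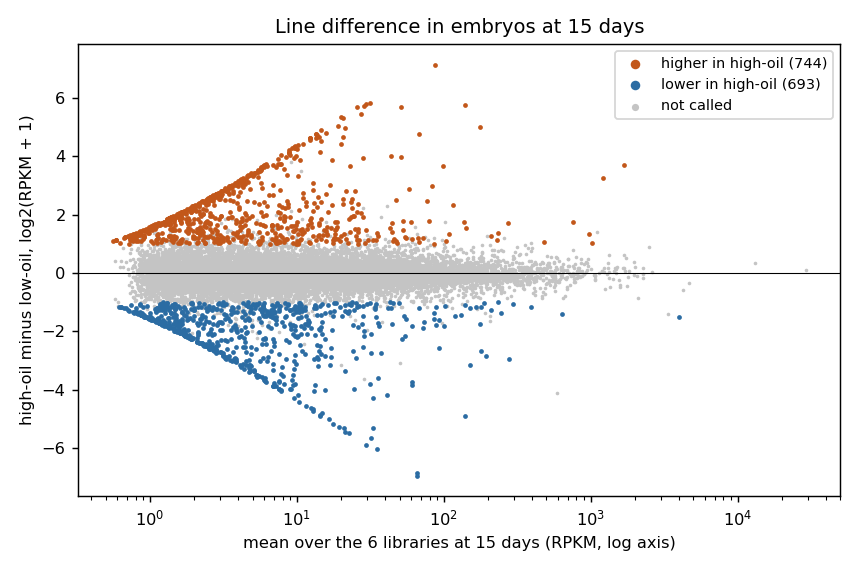
Line difference of each member at 15 days (high-oil minus low-oil, log2(RPKM + 1)) against its mean over the 6 libraries (RPKM, log axis). Orange points are the 744 members called higher and blue points the 693 called lower in high-oil embryos. Called differences are most frequent at low levels, members that entered only through 1 line included. The slanted edges are features near 0 in 1 line.

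On the log2(RPKM + 1) scale, by which members are ranked here and which is not the order by fold, the highest difference belonged to Zm00001d025423, with 179.5, 168 and 174 RPKM in the high-oil libraries, against 0.142, 0.648 and 0 RPKM in the low-oil libraries. It was 661-fold higher in high-oil embryos (log2 difference 7.15, SE 0.16, adjusted p 3.3e-23), and its log2 difference at later stages stayed between 6.92 and 7.27. Zm00001d038519 followed on that scale, with 68.1, 62.6 and 57.1 RPKM in the high-oil libraries, against 0.189, 0.0924 and 0.092 RPKM in the low-oil libraries (503-fold higher, log2 5.82, SE 0.18, adjusted p 1.5e-20). In both genes all high-oil libraries were close together and all low-oil libraries near 0. Both were picked among called members whose lines did not overlap, and both were members only through the high-oil libraries.

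The lowest difference on that scale belonged to Zm00001d016085, which had 0 reads in all 3 high-oil libraries, against 131, 187 and 74.0 RPKM in the low-oil libraries. With a limit of 3 reads over the group, it was at least 2928-fold lower in high-oil embryos (log2 -6.94, SE 0.23, adjusted p 7.1e-20). Zm00001d024477 had 0.0519, 0.079 and 0.142 RPKM in the high-oil libraries, against 162, 76.4 and 159 RPKM in the low-oil libraries (1456-fold lower, log2 -6.86, SE 0.33, adjusted p 4.5e-16). Both were picked by the same rule and were members only through the low-oil libraries, so their lack of overlap between lines was set by the choice. The 4 genes kept their calls in every setting tried, each library left out in turn included.

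Among abundant transcripts, Zm00001d033447 and Zm00001d034413 had the highest levels of the members called higher. Zm00001d033447 had 5628, 2107 and 1674 RPKM in the high-oil libraries, against 162, 284 and 192 RPKM in the low-oil libraries (14.7-fold higher, log2 3.70, SE 0.33, adjusted p 8.7e-10). High-oil replicate 1 carried 0.801% of its reads on this gene, against 0.3% and 0.238% in the other high-oil libraries and 0.0231% to 0.0405% in the low-oil libraries. Zm00001d034413 had 3912, 1829 and 898 RPKM in the high-oil libraries, against 169, 324 and 131 RPKM in the low-oil libraries (10.6-fold higher, log2 3.26, SE 0.41, adjusted p 5.1e-07). For both genes high-oil replicate 1 was the highest library, and the lowest high-oil library still exceeded every low-oil library. Without high-oil replicate 1 the log2 difference was 3.18 for Zm00001d033447 and 2.73 for Zm00001d034413, and both kept the call.

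These genes took different courses afterwards. At 20 days Zm00001d034413 had 23125 ± 2989 RPKM in high-oil and 6394 ± 2058 RPKM in low-oil embryos (SD, n = 3), and at 25 days 45932 ± 4886 RPKM and 44893 ± 11156 RPKM. Its line difference at 15 days exceeded the mean of the later ones by 2.88 log2 units (adjusted p 0.00013). The line difference of Zm00001d033447 at 15 days was smaller than its later mean by a contrast of -2.15 log2 units (adjusted p 0.00047). On the log2 scale the high-oil excess of Zm00001d034413 was thus larger at 15 days than later. At 25 to 40 days this gene was not called (log2 -0.17 to 0.15). The log2 excess of Zm00001d033447 was smaller at 15 days than later.

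The most abundant member called lower was Zm00001d022089, with 2276, 1937 and 2063 RPKM in the high-oil libraries, against 6109.8, 5047 and 6595 RPKM in the low-oil libraries (2.83-fold lower, log2 -1.49, SE 0.23, adjusted p 1.3e-05). Its line difference lay between -1.97 and -2.73 log2 units at 20 to 40 days, and the contrast of 15 days with the later mean, 0.94 log2 units (adjusted p 0.034), missed the size threshold. Zm00001d012068 had 612, 263 and 218 RPKM in the high-oil libraries, against 891, 1289.9 and 556 RPKM in the low-oil libraries (log2 -1.39, SE 0.37, adjusted p 0.011). Here the lines overlapped, and the call ended when only the 15-day libraries were fitted (adjusted p 0.18) and without high-oil replicate 2, high-oil replicate 3 or low-oil replicate 2 (adjusted p 0.075, 0.11 and 0.11).

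The transcripts with the highest RPKM of all were shared by the lines. Zm00001d002768 had 36966, 27302 and 26177 RPKM in the high-oil libraries, against 28351, 26544 and 29034 RPKM in the low-oil libraries (log2 0.09, SE 0.36, adjusted p 0.99). Zm00001d031168 had 14644, 17192 and 11362 RPKM in the high-oil libraries, against 10427, 17464 and 7881 RPKM in the low-oil libraries (log2 0.33, SE 0.26, adjusted p 0.66). Neither was called, and the ranges of the lines overlapped in both. The next in high-oil embryos was Zm00001d013494, with a log2 difference of -0.33 (SE 0.23, adjusted p 0.58), and the next in low-oil embryos was Zm00001d022089, described above.

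Line differences were unevenly spread over feature classes. Among annotated gene IDs, 518 of 20826 members were higher and 503 lower, 4.9% in all. Among features with a running number, which are transcripts outside the annotation, 213 of 1686 members were higher and 180 lower, 23.3% in all. Among ENSRNA features 11 of 160 were higher and 10 lower, 13.1% in all. Without the member rule, over all tested features, the shares were 4.6%, 12.2% and 8.22%. Running-number features were lower in level (median over members 2.4 RPKM, against 10.5 RPKM for annotated IDs). Among members of like mean level, the shares called of running-number and annotated features were 26.0% against 10.1% under 3 RPKM, 22.9% against 5.24% at 3 to 10 RPKM and 12.9% against 3.29% at 10 to 30 RPKM. These shares include members that entered only through the line in which they were high, no test goes with them, and the part of level in the class difference was not tested.

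The running-number feature with the highest difference, Novel14157, had 68.9, 59.3 and 47.7 RPKM in the high-oil libraries, against 0.0284, 0.0973 and 0.0808 RPKM in the low-oil libraries (log2 5.79, SE 0.70, adjusted p 3.2e-07; adjusted p 0.054 with limma-voom on reads). Novel13463 had 44.3, 47.8 and 28.6 RPKM in the high-oil libraries and 0 reads in the low-oil libraries, which makes it at least 855-fold higher (log2 5.33, SE 0.48, adjusted p 8.2e-10). In the other direction, Novel10902 had 0 reads in the high-oil libraries, against 43.5, 43.9 and 39.5 RPKM in the low-oil libraries, at least 1664-fold lower (log2 -5.44, SE 0.14, adjusted p 7.5e-22). Novel01021 had 0.788, 0.65 and 0.553 RPKM in the high-oil libraries, against 68.3, 70.0 and 56.3 RPKM in the low-oil libraries (97.8-fold lower, log2 -5.30, SE 0.15, adjusted p 1.5e-21). All 4 separated the lines completely at this age, but all 4 were members only through the line in which they were high. They were also picked by the size of the difference among called members, so this separation was set in part by the choice. At 20 days Novel14157 had 22.5, 41.3 and 41.3 RPKM in the high-oil libraries, against 32.3, 28.0 and 0.082 RPKM in the low-oil libraries, and the lines overlapped.

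Among noncoding ENSRNA features, ENSRNA049456719 had 42.9, 34.3 and 44.4 RPKM in the high-oil libraries, against 0, 1.2 and 0.958 RPKM in the low-oil libraries (56.3-fold higher, log2 4.66, SE 0.35, adjusted p 1.2e-11). ENSRNA049477418 had 22.4, 35.2 and 27.0 RPKM in the high-oil libraries, against 0.385, 1.17 and 0.437 RPKM in the low-oil libraries (log2 4.14, SE 0.48, adjusted p 1.4e-07). Both were high in every high-oil library. The lower features that follow were members only through the low-oil libraries. ENSRNA049479014 had 0.0462, 0.602 and 0.202 RPKM in the high-oil libraries, against 19.6, 4.95 and 15.8 RPKM in the low-oil libraries (log2 -3.33, SE 0.70, adjusted p 0.0013; adjusted p 0.057 with limma-voom). ENSRNA049479611 had 0 reads in the high-oil libraries, against 13.2, 9.96 and 13.3 RPKM in the low-oil libraries, at least 87.7-fold lower. Its adjusted p of 0.022 (log2 -3.71, SE 1.06) lay above 0.05, and the call was lost, under median-of-ratios scaling (0.052), quantile normalization (0.0501) and limma-voom (0.11), and without any 1 of 5 libraries, all but low-oil replicate 2 (0.056 to 0.071).

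Some members were present in every library of a line and had no read in the other. At or above 1 RPKM in all 3 high-oil libraries with 0 reads in the low-oil libraries were 112 members, of which 68 carried a running number, 41 an annotated ID and 3 an ENSRNA ID. The reverse held for 127 members, 71 with a running number, 54 with an annotated ID and 2 with an ENSRNA ID. Their median level in the line with reads was 3.02 RPKM for the high-oil set and 3.49 RPKM for the low-oil set. These patterns were chosen on the values, so no test goes with them.

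Annotated IDs led both sets in level. Zm00001d035336 had 62.9, 45.2 and 45.8 RPKM in the high-oil libraries and 0 reads in the low-oil libraries, at least 2135-fold higher. Its high-oil mean was lower at each later stage than at the one before, and at 40 days it was 0.712 ± 0.42 RPKM in high-oil and 0.0147 ± 0.0254 RPKM in low-oil embryos (SD, n = 3). Zm00001d029741 had 0 reads in the high-oil libraries, against 60.9, 69.8 and 46.0 RPKM in the low-oil libraries, at least 1561-fold lower, and kept a log2 difference between -4.85 and -5.82 at later stages.

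The absence mostly held at later ages. Of the 112 members without low-oil reads at 15 days, 77 stayed below 0.1 RPKM in every later low-oil library and 17 reached 1 RPKM in at least 1 of them. Of the 127 without high-oil reads, 78 stayed below 0.1 RPKM in every later high-oil library and 6 reached 1 RPKM. B73 RefGen_v4 is the only genome build named, with no separate build for either line. How far each line matches this build at these features was not tested.

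Of 154 microRNA precursors in the table, 17 were tested and 7 were members at 15 days, and 2 of the 7 (2 of the 17 tested) were called, both higher in high-oil embryos, where 2.95% of all features tested were called higher and 5.72% in either direction. The libraries were made from polyadenylated RNA, so the values count reads on the precursor feature and not mature microRNA. Levels were low, and the read numbers behind them are given with exact 95% intervals that cover counting error only. Mature sequences are not shown, since no sequence was used here.

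MIR164c belongs to a family that targets transcripts of NAC transcription factors, among them the CUP-SHAPED COTYLEDON genes that set organ boundaries in Arabidopsis. It had 7.14, 6.21 and 6.55 RPKM in the high-oil libraries, against 0.0741, 0.0846 and 0 RPKM in the low-oil libraries. These values stand for 247 reads in high-oil and 2 in low-oil libraries, a ratio of 123 with an interval of 33.7 to 1021 (log2 2.86, SE 0.35, adjusted p 3.2e-07). Each high-oil library was far above each low-oil library. MIR164c was a member only through the high-oil libraries, so this separation was set in part by the choice. Afterwards the precursor had 358 reads at 20 days, 210 at 25 days, 87 at 30 days, 46 at 35 days and 0 at 40 days in high-oil embryos, against 3 reads at 20 days and 0 at 25, 30, 35 and 40 days in low-oil embryos. At 40 days neither line had a read on it.

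MIR408b belongs to a family that targets transcripts of copper proteins, such as plantacyanins and laccases, and responds to copper supply in Arabidopsis. It had 38.7, 12.6 and 49.1 RPKM in the high-oil libraries, against 0.272, 2.18 and 1.08 RPKM in the low-oil libraries. The 651 high-oil and 23 low-oil reads give a ratio of 28.2 with an interval of 18.6 to 44.8 (log2 3.88, SE 0.72, adjusted p 0.00027). High-oil replicate 2 was the lowest of its group and still lay above every low-oil library. At 25 days MIR408b had 7.81 ± 4.24 RPKM in high-oil and 5.65 ± 4.39 RPKM in low-oil embryos (SD, n = 3), and at 40 days 17.1 ± 8.59 RPKM and 2.43 ± 1.87 RPKM. Its 15-day difference did not pass the test against the mean of the later ones (contrast 2.0, adjusted p 0.26), nor did that of MIR164c (contrast 1.24, adjusted p 0.095).

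The other 5 precursors were not called. MIR156e, of the family that targets SPL transcription factor transcripts and holds back phase changes, had 7.91, 3.21 and 7.5 RPKM in the high-oil libraries, against 9.37, 6.53 and 10.8 RPKM in the low-oil libraries (log2 -0.51, SE 0.45, adjusted p 0.72). MIR156h and MIR156i of that family had log2 differences of 0.18 (SE 0.50, adjusted p 0.97) and -0.64 (SE 0.46, adjusted p 0.60). In high-oil and low-oil libraries there were 105 and 155 reads for MIR156e, 54 and 47 for MIR156h, and 16 and 34 for MIR156i. The ratio of high-oil to low-oil reads had a counting interval of 0.521 to 0.87 for MIR156e, 0.76 to 1.73 for MIR156h and 0.242 to 0.873 for MIR156i. MIR168b, of the family that targets ARGONAUTE1 transcripts, had 12.1, 3.52 and 1.86 RPKM in the high-oil libraries, against 3.46, 1.76 and 2.19 RPKM in the low-oil libraries (log2 0.71, SE 0.45, adjusted p 0.53), with a single high library in the high-oil group and a counting interval of 1.56 to 3.54 for the read ratio. The values of MIR168b stand for 84 high-oil and 36 low-oil reads. MIR2118c, whose family sets off the production of phased small RNAs, had 140 high-oil and 139 low-oil reads, a ratio with an interval of 0.788 to 1.28. The intervals of MIR156e, MIR156i and MIR168b exclude equal reads, but they leave out the spread between libraries that the test includes.

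**Figure D3:**
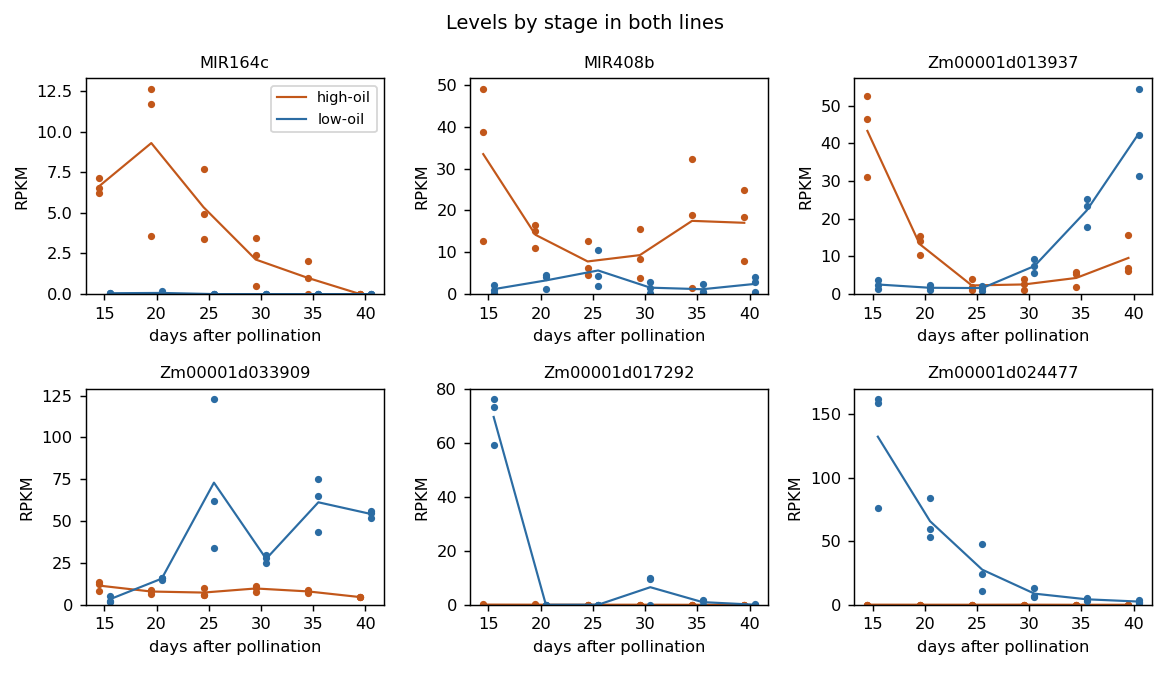
Levels (RPKM, axes starting at 0) of 2 microRNA precursors and 4 annotated genes at 15 to 40 days after pollination, with high-oil libraries in orange and low-oil libraries in blue, points for libraries and lines through group means. Both precursors stand higher in high-oil embryos at 15 days, and the 4 genes have line differences at 15 days that differ from those at later stages.

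To ask which line differences were not the same at 15 days as later, the 15-day difference was tested against the mean of the 5 later ones. The contrast was above 0 for 207 members and below 0 for 142 that passed the test, against a background of 0.909% and 0.663% (1.57% in both directions) of all features tested. Of the 207, 130 were called higher, 15 lower and 62 not called between the lines at 15 days. Of the 142, 95 were called lower, 10 higher and 37 not called. Without high-oil replicate 1, 202 members passed above 0 and 193 below 0, and with limma-voom on reads 101 and 75. Against the 20-day difference alone, 44 members passed above 0 and 20 below 0 (background 0.175% and 0.0963%, 0.271% in both directions). This last count was unstable: it was 44 and 49 without high-oil replicate 1, 22 and 16 without low-oil replicate 1, 27 and 15 without low-oil replicate 3, 29 and 15 without high-oil replicate 3, and 1 and 2 with limma-voom.

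Zm00001d013937 was called in opposite directions at 15 days and from 30 days on. At 15 days it had 31.1, 46.4 and 52.6 RPKM in the high-oil libraries, against 2.54, 1.40 and 3.72 RPKM in the low-oil libraries (17.0-fold higher, log2 3.66, SE 0.38, adjusted p 1.2e-08). At 40 days it had 9.60 ± 5.27 RPKM in high-oil and 42.7 ± 11.7 RPKM in low-oil embryos (SD, n = 3; log2 -2.12). The early minus later contrast was 4.25 log2 units (adjusted p 8.3e-08).

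Zm00001d033909 was also called in opposite directions. It had 8.53, 13.3 and 12.6 RPKM in the high-oil libraries at 15 days, against 5.47, 2.26 and 1.96 RPKM in the low-oil libraries (log2 1.63, SE 0.30, adjusted p 0.00021; adjusted p 0.093 with limma-voom). At 35 days it had 8.0 ± 0.744 RPKM in high-oil and 61.3 ± 16.0 RPKM in low-oil embryos (SD, n = 3), and the contrast was 3.91 (adjusted p 5.5e-09). Over the 6 stages the high-oil mean ran between 4.61 and 11.5 RPKM, while the low-oil mean ran between 3.23 and 73 RPKM.

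Zm00001d017292 had its highest mean, of the 12 groups, in low-oil embryos at 15 days. At 15 days it had 0.0312, 0.0542 and 0.136 RPKM in the high-oil libraries, against 59.4, 76.3 and 73.6 RPKM in the low-oil libraries (944-fold lower, log2 -6.03, SE 0.47, adjusted p 4.2e-11). It was a member only through the low-oil libraries and was picked for its contrast, so the separation at 15 days was set in part by the choice. The high-oil mean was at most 0.0739 RPKM at any stage, and the low-oil mean was 0.00998 ± 0.0173 RPKM at 20 days and 6.53 ± 5.66 RPKM at 30 days (SD, n = 3). The low-oil libraries at 30 days had 10.1, 0 and 9.52 RPKM, and the line difference was called lower there too (log2 -2.25, limma adjusted p 0.0013). The contrast was -5.41 (adjusted p 7.9e-08; adjusted p 0.093 with limma-voom). Zm00001d024477, with a contrast of -3.31 (adjusted p 5.4e-07; adjusted p 0.80 with limma-voom), had a lower low-oil mean at each successive stage, and at 40 days it had 0.0218 ± 0.0227 RPKM in high-oil and 2.53 ± 0.916 RPKM in low-oil embryos (SD, n = 3).

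Most other early differences were carried forward. Of the 744 members called higher at 15 days, 483 (64.9%) were called higher at 20 days too, where the background was 3.31%, and they made up 52.1% of all features called higher at 20 days. The counts were 453 at 25 days (background 3.24%), 435 at 30 days (2.92%) and 398 at 35 days (3.14%). At 40 days 403 (54.2%) were called higher, where the background was 3.4%, and they were 42.2% of the features called higher then. Of the 693 called lower, 505 (72.9%) were called lower at 20 days (background 3.54%) and 356 (51.4%) at 40 days (background 3.47%), which were 50.9% and 36.6% of the features called lower at those ages. Between these ages 457 were called lower at 25 days (background 4.12%), 406 at 30 days (3.38%) and 386 at 35 days (5.13%). These stages share no library with 15 days, but all contrasts come from a single fit of the same lines.

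The median size of the differences was smaller at 40 days than at 15 days. The median log2 difference of the 744 was 1.77 at 15 days, where they were chosen, 1.51 at 20 days and 1.21 at 40 days. For the 693 it was -1.73 at 15 days, -1.61 at 20 days and -1.14 at 40 days. A decline after selection is partly built in. There were 298 higher and 283 lower members called in the same direction at all later stages, and 149 and 90 called at none. A call in the opposite direction at some later stage was seen for 18 of the 744 and 6 of the 693. Across all members the 15-day difference and the mean later difference had a correlation of 0.77, given as a description since features are not independent.

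**Figure D4:**
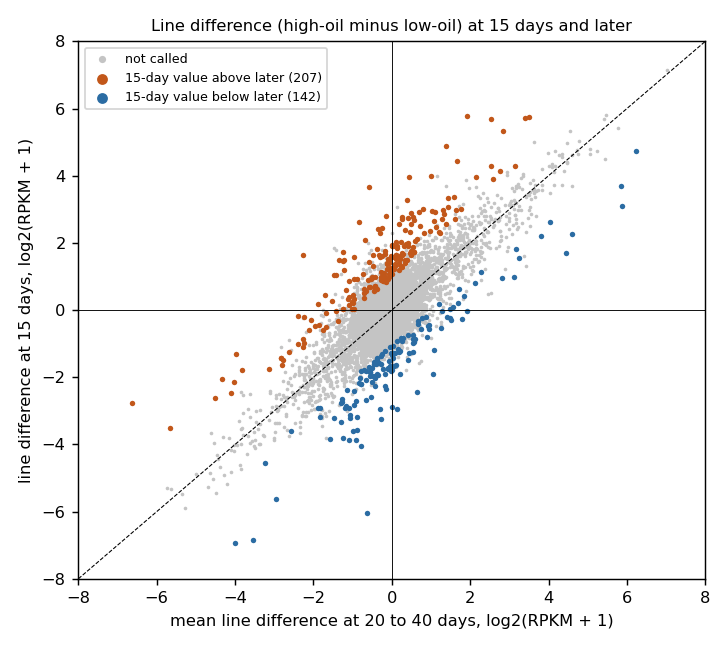
Line difference at 15 days against the mean line difference at 20 to 40 days for every member, both as high-oil minus low-oil on the log2(RPKM + 1) scale, with the dashed line marking equality. Orange points are the 207 members whose 15-day difference passed the test above the later mean and blue points the 142 that passed below it; most other members with a large difference lie near the dashed line.

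Called genes were unevenly spread along the ID numbers. The files give no positions, but IDs of this annotation were numbered along the chromosomes, so that near numbers are in general near genes. Annotated IDs were cut into blocks of 250 consecutive numbers, and the 208 blocks with at least 40 members held 20708 members. The share called at 15 days had a median of 3.23% over blocks, a lower quartile of 1.15%, an upper quartile of 7.85% and a highest value of 20.0%, where 4.9% of all annotated members were called. In 19 blocks with 1835 members 0 were called, and 30 blocks with 2885 members had at least 10% and held 381 of the 1006 calls in blocks.

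Neighbouring blocks were joined into stretches by whether their share reached 2%, a limit below the overall share. This gave 41 stretches at or above 2%, of which 15 were a single block and the longest held 14 blocks, and 38 stretches below 2%, of which 19 were a single block and the longest held 6. The stretches described here were not chosen by a rule set beforehand. In the longest, from number 31500 to 34999, 57 of 1569 members were higher and 56 lower (7.2%). The highest share was from 15250 to 16749, with 26 of 518 higher and 35 lower (11.8%). From number 41000 to 43499, 61 of 1028 members were higher and 37 lower (9.53%), and the shares of its 10 blocks ran from 5.38% to 20.0%. From 12000 to 14999, 64 of 1431 members were higher and 63 lower (8.87%), with 2.78% to 13.5% in its 12 blocks. From 52250 to 53749, 4 of 588 were higher and 3 lower (1.19%), and from 38750 to 39999, 2 of 579 were higher and 1 lower (0.518%). Between 23250 and 26249 the calls leaned to 1 side, with 24 of 1081 members higher and 54 lower. The longest run of neighbouring member IDs called in the same direction was from Zm00001d030232 to Zm00001d030235, 4 genes lower in high-oil embryos with log2 differences of -1.15 to -2.90. The smallest of these, of Zm00001d030233, lost its call with a pseudocount of 0.1 (adjusted p 0.11) and without high-oil replicate 2 or low-oil replicate 2 (adjusted p 0.053 and 0.051). No run of higher genes exceeded 3.

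The same blocks were set beside the calls at later stages, which come from the same fit, with shared variances. In the 19 blocks without a call at 15 days, 0.49% to 2.4% of the members were called at 20 to 40 days. In the 30 blocks with at least 10%, 11.5% to 13.3% were called at those ages. Over all annotated members the shares ran between 4.46% and 6.17%, and over all features tested they were 6.85%, 7.36%, 6.3%, 8.27% and 6.88% at 20, 25, 30, 35 and 40 days. Across the 208 blocks, the share called at 15 days and the share at a later stage had correlations of 0.815 to 0.863, a description over the same genes in the same lines.

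**Figure D5:**
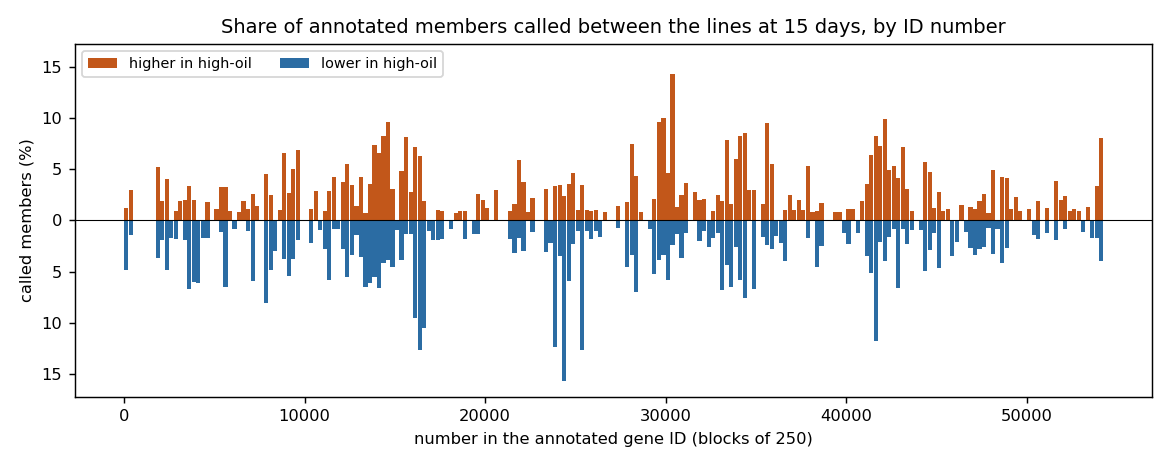
Percent of annotated members called between the lines at 15 days in each block of 250 consecutive ID numbers, with the share higher in high-oil embryos drawn upward in orange and the share lower drawn downward in blue. Blocks with at least 40 members are shown; blocks with few calls in either direction stand beside blocks with many.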

How the data were processed

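The authors deposited 1 table of RPKM values with 1 column per library, and 0 columns were unused. Per the submitters' processing notes, FastQC, TopHat2, Cufflinks and the build B73 RefGen_v4 are named, with no versions or roles stated. How reads were counted, with which annotation release and whether by strand is not given in the sources used here, so overlapping, antisense and near-identical genes are uncertain. The values resolved to whole reads for 100% of the 51853 features above 0 (tolerance 0.0001 reads, wider in proportion for large counts), which gave read numbers and totals.

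Limma 3.58.1 (R 4.3.3) was fitted to log2(RPKM + 1), with 1 mean per group over all 36 libraries and a mean-variance trend, on the 28048 features that reached 1 RPKM in 3 or more libraries. P-values were Benjamini-Hochberg adjusted over all of these. The test was checked on simulated reads. Python 3.11.15, pandas 2.3.3 and SciPy 1.17.1 gave summaries.

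Named were 2 members in each direction by size, level, class, all-or-none pattern and early minus later contrast, the most abundant, the longest run and all precursors that were members. Those named by size were taken among called members whose lines did not overlap. Members, lists and tests were chosen with earlier results of these data known. Alternatives were other scalings, pseudocounts, filters, thresholds and fits, limma-voom on reads, a replicate block and each 15-day library left out.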

Additional observations from a re-analysis of the deposited data

Results flagged for a closer look

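Several line differences were not the same at 15 days as later, by a test of the difference itself (limma, 15-day minus mean later line difference). Of the members, 349 (1.54%) passed it, a share close to the 1.57% of all features tested. Those with the highest contrast were Zm00001d013937, at 4.25 log2 units, and Zm00001d033909, at 3.91. Those with the lowest were Zm00001d017292, at -5.41, and Zm00001d024477, at -3.31, and both lost the call with limma-voom on reads.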

How the results depend on the processing

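The count of 1437 members called at 15 days was 992 with a minimum of 5 RPKM, where fewer features were tested, 1499 with a pseudocount of 0.1 and 2063 by the adjusted p alone, which raised the lower calls to 1078. It was 1388 with limma-voom on reads, 1279 with only the 15-day libraries fitted and 1347 to 1518 with 1 library left out. For the 15-day minus later contrast, limma-voom gave 176 members (101 above 0 and 75 below 0), the adjusted p alone gave 311 above 0, quantile normalization split the calls into 156 and 150 and median-of-ratios scaling into 177 and 148. The 15-day minus 20-day count of 64 was the least stable. It was 22 (8 above 0) with a pseudocount of 0.1, 40 (23) with a minimum of 5 RPKM and 3 (1 above, 2 below) with limma-voom, and 27 were above 0 with median-of-ratios scaling and 26 with quantile normalization. With 1 library left out it ranged from 38 to 93, with 22 to 44 above and 15 to 49 below. The cause was not tested. A fit without 3 later libraries that stand apart from their groups, added after the data were seen, gave 1483, 412 and 93 members. Over the named members and settings, 550 values kept their side of the threshold, 20 lost the call and 0 reversed.

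The replicate numbers gave no clear pairing of the libraries: deviations of same-numbered libraries correlated at -0.029, 0.062 and 0.24. Those of other-numbered libraries correlated at -0.23 to 0.14. With 3 libraries per line these values cannot decide whether equal numbers mark pairs. With the replicate number as a block within each stage, 1434 members were called at 15 days, 333 for the contrast with later stages, and 42 (26 above 0) for that with 20 days. Features near 1 RPKM rest on few reads when short, and differences there may be missed.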
